A study of Mus musculus with 7 samples.

Results

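Carboxylesterases are serine hydrolases that cleave ester bonds in drugs, toxicants and lipids. In hepatocytes most of them sit in the lumen of the endoplasmic reticulum. Members of the mouse Ces1 and Ces2 groups hydrolyse stored triglyceride or other acylglycerols, and they are known as a link between drug metabolism and the handling of liver fat. The genes described here are Ces1d, Ces1e, Ces1f and Ces1g, then Ces2a, Ces2c and Ces2e, then Ces3a and Ces3b. They were chosen by symbol, and each probe was assigned through the RefSeq accession in the scanner files. They are 9 of the 17 carboxylesterase genes with a named probe, and of 32451 genes on the array. They had 12 probes, all well above background on all 3 arrays of the high-fat diet group.

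The samples are livers of male C57/BJ mice, put at 6 weeks of age on control chow (n = 4) or on a high-fat diet, here HFD (n = 3), the diet D12331. Each diet lasted 20 weeks, so all mice were 26 weeks old, and the labels name no other treatment or allele in either group. Total RNA of each liver was labelled with Cy3 and hybridised to 1 Agilent array. The labels do not say which animal each sample came from, so the limma p-values below measure the spread between these samples.

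The data consist of a scanner file per array, with spot intensities of 39429 probes, and a deposited table of log2 values for 1615 of them. At every probe of the table, 1615 in all, the chow and HFD values were fully separated, so its probes had been selected on the diet comparison. The liver label was checked on the HFD arrays, where 10 of 10 hepatocyte markers, 4 of 4 measured macrophage markers and 4 of 4 stellate cell markers were well above background. Of markers of other tissues, 0 of 4 for adipose, 0 of 3 for kidney, 2 of 4 for pancreas and 1 of 4 for intestine were well above background on all 3 arrays. On the HFD arrays 57.0% to 66.8% of spots exceeded background clearly, no spot was saturated, and HFD replicate 1 had a mean negative control signal of 46.9 against 29.9 and 30.8 on the other HFD arrays. Precision is limited by having 7 arrays.

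The scanner files labelled chow did not hold the chow values of the table for these genes. Of the 12 probes, 7 were not well above background in any of the 4 files labelled chow, and 4 were so in all of them. For Ces2a the processed signal in these files was 5.76 to 6.999 intensity units, not well above background, against 15180, 17169 and 25947 in HFD replicates 1, 2 and 3. Yet the deposited chow columns of the table list Ces2a above HFD. The Ces1f probe was well above background in 1 of the 4 files, chow replicate 3, at 52.4 units. The Ces2c probes and the brighter Ces2e probe were the 4 above background throughout, at 187 to 789 units. The markers also went against the liver label in these 4 files, where 5 of 10 hepatocyte markers were well above background in all 4 and 4 in none, while 2 of 3 kidney markers were so in all 4. The diet comparison therefore rests on the table, and members outside it are described from the HFD arrays alone.

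**Figure D1:**
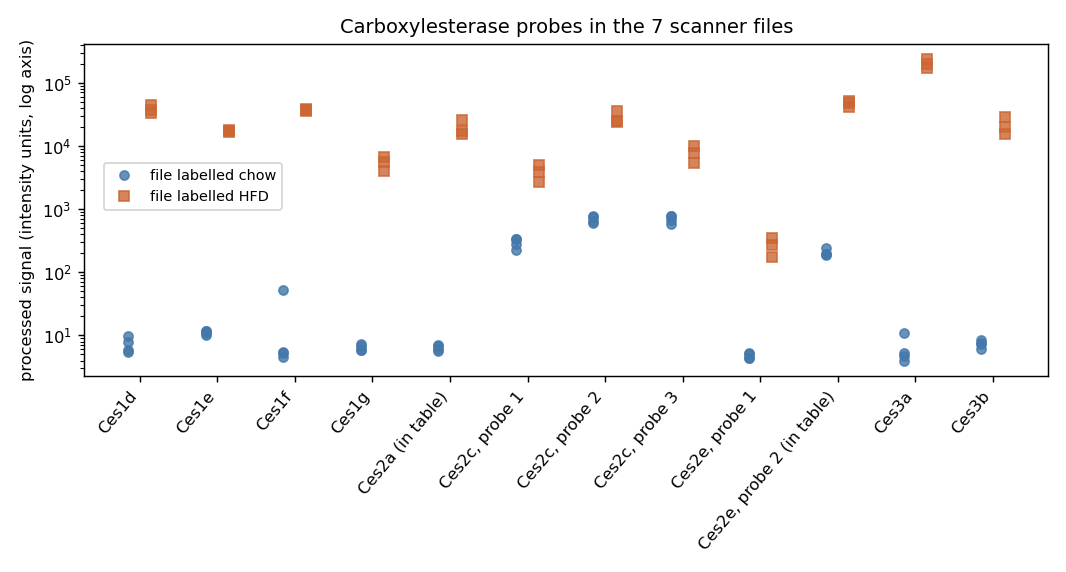
Processed signal in intensity units, on a log axis, of the 12 carboxylesterase probes in the 4 scanner files labelled chow (circles) and the 3 labelled HFD (squares). Every HFD value lies above every value of the files labelled chow at the same probe, also for Ces2a, which the deposited table lists as higher in chow.

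In the gene order of the RefSeq annotation (GRCm38.p6), the members lie on chromosome 8 in 2 unbroken runs of protein-coding carboxylesterase genes. The first run has 9 genes, from Ces1a to Ces5a, and holds the 4 Ces1 members. The second has 10 genes, from Ces2a to Ces4a, and holds the 5 members of the Ces2 and Ces3 groups. Ces2a and Ces2e, the pair that differed with diet, are thus in 1 run, with Ces2b and Ces2c between them among protein-coding genes. The 250 bases before the start of each are shown because these related neighbours differed in opposite directions. Capitals mark the stretches of at least 12 bases that both windows share exactly. The windows are from RefSeq, build GRCm38.p6, both on the plus strand, at chr8:104733753-104734002 for Ces2a and chr8:104926010-104926259 for Ces2e.
Ces2a: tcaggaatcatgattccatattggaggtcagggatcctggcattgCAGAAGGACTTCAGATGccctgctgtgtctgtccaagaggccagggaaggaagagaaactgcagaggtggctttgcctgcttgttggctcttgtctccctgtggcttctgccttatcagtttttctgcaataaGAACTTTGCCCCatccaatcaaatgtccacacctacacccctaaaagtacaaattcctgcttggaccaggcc
Ces2e: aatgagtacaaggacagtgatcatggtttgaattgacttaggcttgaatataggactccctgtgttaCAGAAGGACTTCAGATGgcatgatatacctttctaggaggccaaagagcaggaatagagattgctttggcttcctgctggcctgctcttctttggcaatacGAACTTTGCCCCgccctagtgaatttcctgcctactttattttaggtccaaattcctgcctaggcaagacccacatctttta

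The longer shared stretch has 17 bases. It begins 205 bases before the Ces2a start and 183 before the Ces2e start, and no other gene's window held it on either strand, among 32851 windows. The shorter has 12 bases and begins 72 and 82 bases before the starts, and it was also in the window of 1 other gene, Gm15638. Aligned end to end, 69.9% of the aligned bases of the Ces2a and Ces2e windows were identical, against 68.3% for Ces2a with Ces2c and 66.8% for Ces2c with Ces2e. As a share of the whole window the order was another, with 60.4% identical for Ces2a with Ces2e, 66.4% for Ces2a with Ces2c and 58.0% for Ces2c with Ces2e. For pairs that included a Ces1 window or Ces3b the share of aligned bases was 49.6% to 65.4%. Windows were found for 6 of the 9 members. Of 7 motifs searched on both strands, AGGTCA, a core letter run of nuclear receptor sites, was in 1 of the 6 members, Ces2a, where it begins 226 bases before the start, and in 14.02% of all windows. Its variant AGTTCA was in none of the 6 and in 11.8% of all windows. The letters TATAAA were in Ces1g and Ces3b (12.4% of all windows), and GTTAAT, a core run of HNF1-type sites, was in Ces3b (6.43%). TGACCTTTG (0.426%), TTGCGCAA (0.164%) and TGACTCA (4.46%) were in none. These matches describe letters in these windows and are not binding sites.

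The design asks which liver genes differ between HFD and chow. Ces2a, whose product hydrolyses acylglycerols and many drug esters, fell in HFD by 2.46-fold, and Ces2e, which encodes a related hydrolase of acylglycerols, rose by 1.86-fold. The table listed 2 of the 9 members, against 4.59% of all genes on the array and 7.4% of those detected clearly on 2 or more HFD arrays. Of the 9, 1 passed as lower, against 0.832% of all genes, and 1 as higher, against 1.05% of all genes. In either direction 2 of 9 passed, against 1.89% of all genes on the array. All 9 were detected on the HFD arrays, and the share of calls among detected genes alone was not counted. The members were also chosen with earlier results of these data known. Of the 2 members that the table listed both passed, against 41.1% of the table's genes. The other 7, namely Ces1d, Ces1e, Ces1f, Ces1g, Ces2c, Ces3a and Ces3b, were not listed, so whether they differed with diet cannot be read from the table.

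The deposited log2 levels of Ces2a were 15.41, 15.53, 15.66 and 15.53 in chow replicates 1 to 4 and 13.80, 14.24 and 14.67 in HFD replicates 1 to 3. All 3 HFD samples lay below all 4 chow samples, with a gap of 0.74 between the nearest, and HFD replicate 3 was the closest to chow. The HFD samples were also further apart than the chow samples. The chow mean was 15.53 ± 0.10 (SD, n = 4), and the HFD mean was 14.24 ± 0.44 (SD, n = 3). This gave a log2 fold change of -1.30 (SE 0.20, 95% interval -1.77 to -0.83), with an adjusted p = 0.0357 in limma (Benjamini-Hochberg over all 32451 genes). Of the table's genes, 20.7% had a larger absolute log2 fold change.

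For Ces2e the deposited log2 levels were 14.27, 14.77, 14.84 and 14.80 in chow replicates 1 to 4 and 15.55, 15.46 and 15.68 in HFD replicates 1 to 3. Here the order of the groups was the reverse of that for Ces2a, with a gap of 0.62 between the nearest samples, and chow replicate 1 lay apart below the other chow samples. The chow mean was 14.67 ± 0.27 (SD, n = 4), and the HFD mean was 15.56 ± 0.11 (SD, n = 3). This gave a log2 fold change of 0.89 (SE 0.16, 95% interval 0.51 to 1.27), with an adjusted p = 0.0484 in limma. Of the table's genes, 43.9% had a larger absolute change. The median log2 fold change over all genes of the table was 0.44, with 801 genes higher and 687 lower.

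**Figure D2:**
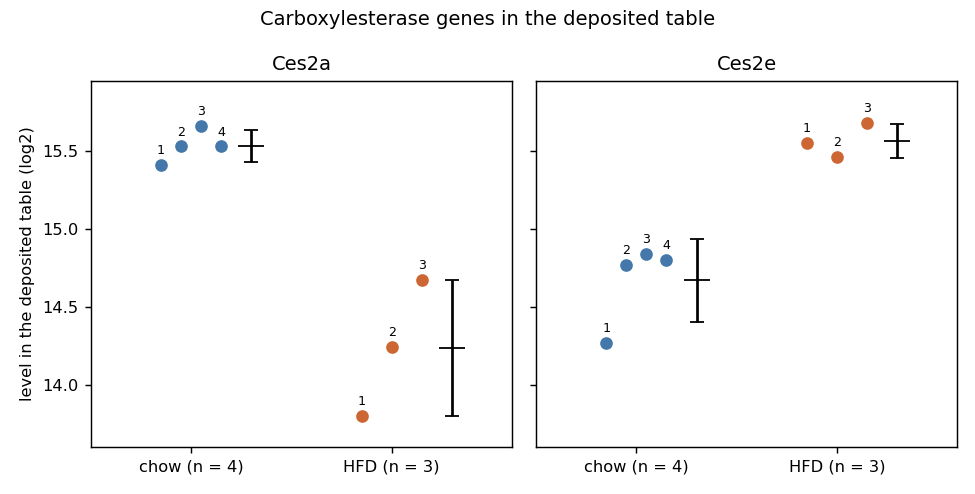
Deposited log2 levels of Ces2a and Ces2e in each sample, with replicate numbers above the points and bars for the mean and SD of chow (n = 4) and HFD (n = 3). Ces2a lies at 13.80 to 14.67 in HFD, below its chow values, and Ces2e at 15.46 to 15.68 in HFD, above its chow values.

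Because the table was selected on this comparison, the separation of the groups was fixed in advance and these p-values are not independent evidence. An exact permutation test (two-sided) gave p = 0.0571 for each gene, the smallest p that 4 against 3 samples can give. Most fits without 1 sample lost these calls, and calls over the whole table fell as well. From 342 higher and 270 lower with all samples, 0 and 0 were left without chow replicate 1 or without HFD replicate 1. The loss was thus not particular to Ces2a and Ces2e. Without chow replicates 1, 2, 3 or 4 or HFD replicates 1 or 2, the adjusted p of Ces2a in limma was 0.0889, 0.0893, 0.106, 0.0990, 0.0844 and 0.138, and without HFD replicate 3 it was 0.0237. For Ces2e it was 0.0765 to 0.174 without any 1 of the 7 samples. The folds ran from 2.11 to 2.85 for Ces2a and from 1.69 to 1.93 for Ces2e in these fits. When each column was centred on its median, which lowered the median of all table genes to 0.23, the log2 fold change was -1.51 for Ces2a (adjusted p = 0.0271) and 0.68 for Ces2e, whose call was then lost (adjusted p = 0.157). That centring turned the counts over the whole table from 342 higher and 270 lower into 185 and 605, and quantile normalization into 289 and 531. The HFD arrays were scanned on 1 day, the scan day behind the chow columns is not known, and so scan day and diet cannot be told apart.

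Among markers of liver cell types, Serpina1a alone passed in the same table. Of 10 hepatocyte markers 2 were listed, both lower in HFD. The table listed 4.59% of all genes and 7.4% of those detected clearly on 2 or more HFD arrays. Serpina1a was 1.43-fold lower (adjusted p = 0.0441 in limma), but its adjusted p was 0.0659 to 0.177 without any 1 sample, and under quantile normalization its log2 fold change was 0.15. Cps1 missed the threshold at a log2 fold change of -1.36 (adjusted p = 0.0529 in limma). Cps1 and Serpina1a each passed in 4 of 13 alternatives, and in 0 of the 7 that left out 1 sample. Of 4 stellate cell markers, Dcn was listed, with a log2 fold change of 0.64 (adjusted p = 0.0672). No cholangiocyte, endothelial or lymphocyte marker and none of the 4 measured macrophage markers of the list was in the table. Of 4 intestinal markers Fabp2 was listed, 3.62-fold higher (adjusted p = 0.0180 in limma, and 0.0237 to 0.0844 without 1 sample, under 0.05 only without chow replicate 2 or HFD replicate 3), and Lct was not above background on any HFD array. On the HFD arrays the summed signal of the hepatocyte markers was 11.54 to 12.09 on the log2 scale relative to the 75th percentile of the array. Their part in the Ces2a and Ces2e differences was not tested. In bulk RNA, fewer cells of a type and less RNA per cell cannot be told apart.

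**Figure D3:**
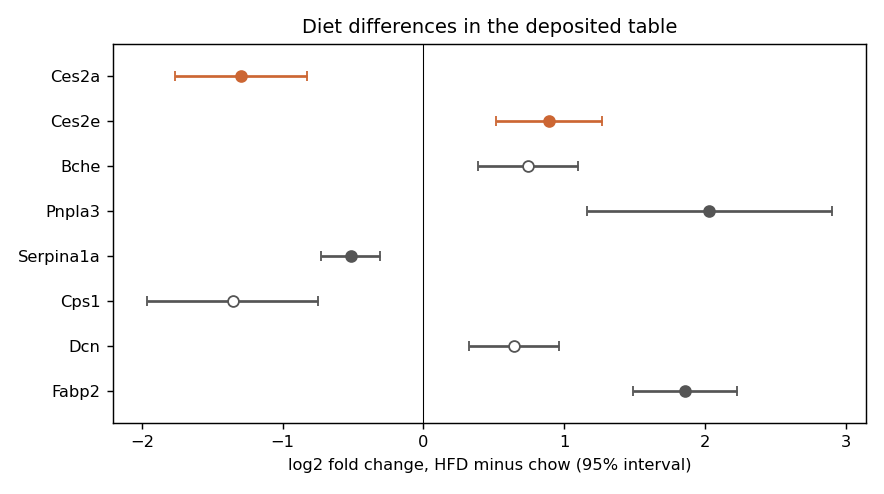
Log2 fold change (HFD minus chow) with its 95% interval for every carboxylesterase gene, related hydrolase and cell type marker of the lists that is in the deposited table, where filled points passed in limma. Ces2a and Ces2e (coloured) have intervals on opposite sides of 0.

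Among other genes of ester hydrolysis and triglyceride turnover, Bche and Pnpla3 were listed, both higher in HFD, and Pnpla3 passed. Of 35 genes on these lists, 33 had a named probe and 30 were well above background on all 3 HFD arrays. The table held 2 of the 33, against 4.59% of all genes and 7.4% of those detected clearly on 2 or more HFD arrays. None of the 8 other carboxylesterases with a probe, among them Ces1b, Ces1c, Ces2b and Ces2g, was listed. Of 12 other esterases and hydrolases, Bche, which encodes butyrylcholinesterase, was listed, with a chow mean of 12.69 ± 0.16 (SD, n = 4) and an HFD mean of 13.44 ± 0.25 (SD, n = 3), and it did not pass (log2 fold change 0.74, SE 0.15, adjusted p = 0.0598 in limma). Of 13 genes of triglyceride turnover and lipoprotein assembly, which include the lipase genes Pnpla2, Lipc and Mgll, Pnpla3 was listed and rose. Its chow mean was 4.70 ± 0.61 (SD, n = 4) and its HFD mean 6.73 ± 0.48 (SD, n = 3), a log2 fold change of 2.03 (SE 0.37, adjusted p = 0.0491 in limma). Its adjusted p was 0.0686 to 0.175 without any 1 of the 7 samples and 0.0529 with centred columns, so the call was lost in each of these fits. Pnpla3 passed in 4 of 13 alternatives. With the mean of its probes in the table, the log2 fold change was 2.27 (adjusted p = 0.0364 in limma). The values here are of its brightest probe. Of its 4 chow values, 3 lay below the lowest level at which a probe was well above background on HFD replicate 1 (4.77), the array with the raised negative control signal, and 0 below that level on HFD replicates 2 and 3 (4.07 and 3.47). A further list held 11 transcription factor genes, all well above background on the 3 HFD arrays. None of them was in the table, among them Nr1i2 and Nr1i3, which encode the xenobiotic receptors PXR and CAR that act on drug-metabolism genes.

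The Ces1 members were measured in HFD alone. Levels are log2 processed signals minus the log2 75th percentile of the array's spots, so that 0 stands for the brightness of that percentile, and they are not compared between probes. Ces1d encodes triacylglycerol hydrolase, which mobilises stored triglyceride for lipoprotein secretion. Its level was 5.51, 5.59 and 5.29 in HFD replicates 1, 2 and 3, a range of 1.23-fold. Ces1e, which encodes egasyn, an anchor for beta-glucuronidase in the endoplasmic reticulum, had levels of 4.15, 4.55 and 4.33. Ces1f, another triglyceride hydrolase gene, had levels of 5.29, 5.62 and 5.42. These 3 genes lay above the 75th percentile on each array, with an SD of 0.16 to 0.20 between arrays, near the median SD of 0.17 over all probes well above background on the 3 arrays. Ces1g, whose loss in mice is known to raise liver fat, varied more, with levels of 2.80, 2.87 and 2.25 and an SD of 0.34 (n = 3). It was lowest in HFD replicate 3.

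Of the Ces2 group, Ces2c encodes an acylglycerol and acylcarnitine hydrolase and had 3 probes. Their levels in HFD replicates 1, 2 and 3 were 4.66, 4.95 and 5.39 for probe A_55_P2005213, 3.01, 2.83 and 3.57 for A_55_P2124712, and 1.99, 1.81 and 2.55 for A_52_P318361. HFD replicate 3 was highest at each. Around their own means, the last 2 probes followed each other within 0.0051 on the log2 scale, while the first departed from them by up to 0.26. The probe of the neighbouring gene Ces2b followed the same pair within 0.039. Probe sequences were not used here, so whether a probe also binds transcripts of a related gene was not tested.

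The 2 probes of Ces2e did not vary alike on this scale. The probe in the table had levels of 5.64, 5.75 and 5.95 in HFD replicates 1, 2 and 3, and the dimmer probe, A_51_P179919, had -1.46, -2.11 and -1.64. They departed from each other by up to 0.42 around their means. The dimmer probe was not in the table, so the Ces2e difference rests on 1 probe. Ces2a, also with 1 probe, had levels of 3.97, 4.50 and 4.95 on this scale, which gave the same order of HFD samples as the table. For the Ces2e probe of the table the order differed, since the table had HFD replicate 2 lowest (15.46) and not HFD replicate 1 (15.55). The dimmer probe, read off on the table's scale, was at 8.16, 7.54 and 8.03. On that scale both probes were thus lowest in HFD replicate 2, but only the probe in the table was highest in HFD replicate 3.

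Ces3a and Ces3b encode carboxylesterases of the liver that lie side by side in the second run. Ces3a had levels of 7.44, 8.02 and 8.14 in HFD replicates 1, 2 and 3. Ces3b had 4.01, 4.70 and 5.09, with an SD of 0.54 (n = 3), the largest of the 12 probes and a 2.11-fold range. Both were lowest in HFD replicate 1 and highest in HFD replicate 3, as was Ces2a.

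**Figure D4:**
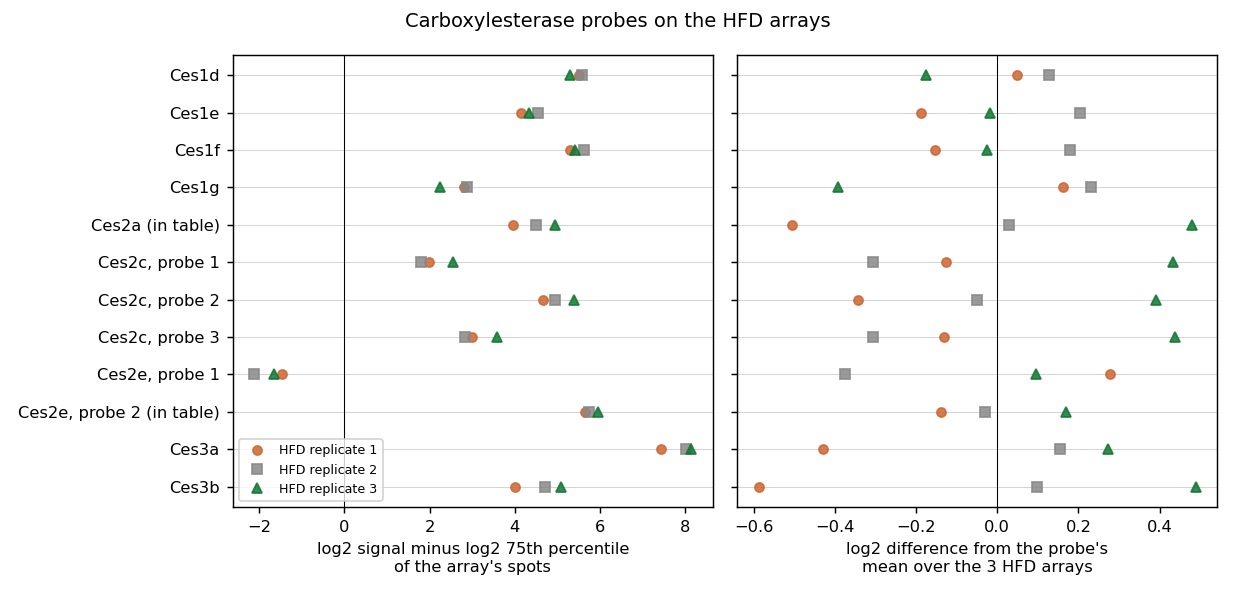
Left, level of each of the 12 carboxylesterase probes on the 3 HFD arrays (log2 signal minus the log2 75th percentile of the array's spots), and right, the log2 difference of each array from the probe's own mean. Of the 8 probes of Ces2 and Ces3 members 7 were highest in HFD replicate 3, and none of the 4 Ces1 probes was. Levels of different probes are not comparable.

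The members thus varied in different ways among the HFD samples. Of the 8 probes of Ces2 and Ces3 members, 7 were highest in HFD replicate 3, where the median departure from the probe's own mean was 0.41 on the log2 scale. Of the 4 Ces1 probes, all 4 were highest in HFD replicate 2 and none in HFD replicate 3, where the median departure was -0.10. Of all 21643 probes well above background on the 3 arrays, 38.7% were highest in HFD replicate 3, 31.8% in HFD replicate 1 and 29.5% in HFD replicate 2. The count of 7 and the count of none held under each of 5 other scalings, while the count of Ces1 probes highest in HFD replicate 2 was 3 under quantile normalization and on the authors' scale. The median SD of the 12 probes was 0.36, against 0.17 for all those probes. Over HFD replicates 1 and 2 alone it was 0.22, with no value for all probes over that pair to set beside it. With 3 samples from 1 group these are descriptions, and members of 1 gene run share their arrays. The other scalings use the same 3 arrays. Probes were counted singly, so Ces2c and Ces2e, with more than 1 probe each, weigh more than the other genes. The Ces2c probes A_52_P318361 and A_55_P2124712 followed each other within 0.0051 around their means. The summed hepatocyte markers were 11.54, 12.09 and 12.02 on the same scale in HFD replicates 1, 2 and 3, and the summed macrophage markers 6.20, 5.28 and 5.30. Their part in this spread was not tested.

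Patterns most like those of Ces2a and Ces2e were sought among the other 1486 genes of the table, by Pearson's r over the 7 samples. For Ces2a the closest named genes were Spag7, Cep170b and Tcea1, with r between 0.9937 and 0.9942. For Ces2e they were Gstt1, a glutathione S-transferase gene, Tex22 and Tdp2, with r between 0.9902 and 0.9930. Since the table selects on diet, much of this likeness is the difference between groups. With each group's mean taken off, the closest to Ces2a were Vpreb1, Hemgn and Cadps2 (r of 0.9605 to 0.9769), and the closest to Ces2e were again Gstt1, Tex22 and Tdp2 (r of 0.9352 to 0.9650). Gstt1 had levels of 15.53, 15.81, 15.83 and 15.85 in chow replicates 1 to 4 and 16.36, 16.38 and 16.53 in HFD replicates 1 to 3, with chow replicate 1 lowest, as for Ces2e. These values are descriptions over 7 samples that share their arrays.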

How the data were processed

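Liver total RNA (0.5 µg per sample) was labelled with Cy3 for 1-colour Agilent arrays, per the labels' protocols. The deposited scanner files hold spot intensity values, background-subtracted by Feature Extraction 10.7.3.1 per the file headers, while version 9.1 is named in the submitters' processing notes. A table of log2 values was also deposited by the authors for 1615 probes, with a normalization and selection not given in the sources used here. On the HFD arrays these rose with the scanner signal (Spearman's rho of at least 0.999999), so scale and direction are known there but not for chow. Column medians ran from 9.55 to 9.85.

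Control spots and outlier-flagged spots were left out, spots of a probe were averaged, and 27228 of 39429 probes were named through RefSeq accessions (GRCm38.p6, used for names and gene order; the promoter table has its own coordinates). Limma 3.58.1 (R 4.3.3) compared HFD with chow on the brightest table probe per gene, with a variance prior (0.0354, 2.10 degrees of freedom) from 19489 genes detected clearly on 2 or more HFD arrays. Benjamini-Hochberg adjustment covered all 32451 genes, and genes outside the table counted as not differing. The procedure was tested on simulated data with variances drawn from its own prior. That test does not cover the unknown normalization and selection of the deposited table. Members and lists were chosen with earlier results of these data known. All 9 members were named, with other list genes only where in the table, and the genes most like each listed member. Alternatives were replicates left out, a replicate block, scalings, priors, the genes adjusted over and probe choice. Shared stretches of the windows were sought after the values were seen.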

Additional observations from a re-analysis of the deposited data

Results flagged for a closer look

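The Ces2e level of 14.27 in chow replicate 1 lay far from the other chow samples, at 14.77 to 14.84. Its gap of 0.50 to the nearest was 0.88 of the group's range, above Dixon's 95% critical value of 0.829 for 4 samples. Chow groups of 4 genes (Ces2a, Ces2e, Bche and Pnpla3) were examined in this way, and chance marks about 1 in 20 such groups. Without this sample the log2 fold change of Ces2e was 0.76 (adjusted p = 0.0765 in limma).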

How the results depend on the processing

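Ces2a stayed lower and Ces2e higher in HFD under all 13 alternatives of the diet comparison. Because the table holds only probes with separated groups, leaving out samples could not reverse either direction. The adjusted p in limma was under 0.05 in 6 of the 13 for Ces2a and 4 for Ces2e (range 0.00164 to 0.221 and 0.00222 to 0.263). Both lowest values came from adjustment over the table's genes alone, where all 1488 genes passed. Leaving out 1 sample gave log2 fold changes of -1.51 to -1.08 for Ces2a and 0.76 to 0.95 for Ces2e, with 0 to 1 carboxylesterase genes passing as lower, 0 passing as higher (7 of 7 fits), and 0 to 1 of the other hydrolysis genes passing as higher. With a replicate block on replicates 1 to 3 the values were -1.30 and 0.94 (adjusted p = 0.221 and 0.263), and 0 genes passed as lower or higher in any of these groups. In that limma fit 0 genes of the whole table passed, while all 1488 had an unadjusted p under 0.05. The unadjusted p in limma stayed at or under 0.00171 for Ces2a and 0.00533 for Ces2e in the 13 alternatives, and the exact permutation test was the only other test run. Whether the replicate numbers pair the samples is not known. Same-numbered samples' deviations correlated at -0.10, 0.14 and 0.028, and differently numbered ones at -0.16 to 0.14. Such weak values cannot decide it. Centring the columns gave 0.68 for Ces2e and 0 higher genes in both groups. A prior from the table's own genes, or adjustment over the table's genes alone, gave 2 other hydrolysis genes passing as higher. Over the whole table these settings gave 552 higher and 474 lower, and 801 and 687. Fits without 1 sample gave 0 to 243 higher and 0 to 210 lower. The median SD of the 12 probes over HFD arrays was 0.22 to 0.39 without 1 array. Of 5 other scalings, 4 moved the HFD levels of all 12 probes by over 1 SD and normexp moved 4; the cause was not tested. Normexp used median spot signals, and the authors' scale was read off each HFD array's curve of table value against signal; both were chosen after seeing the data, and normexp on mean signals was not run.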
